A study of Drosophila melanogaster with 18 samples.

Results

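Cytochrome P450 genes were followed in whole flies of Drosophila melanogaster as they passed from eclosion to day 2 of adulthood, with or without cycloheximide (CHX). Members were chosen by symbol: a gene counted if its name in the Ensembl annotation began with Cyp and a digit, and Cyp4g1 was left out. The rule found 85 rows, and the 2 of them named Cyp1 and Cyp40 are cyclophilins, a family of protein-folding enzymes, so they were set apart. This left 83 P450 rows among 17869 genes and 23932 features of the count table. They are 81 genes and the 2 pseudogenes Cyp6a15Psi and Cyp6t2Psi, in 20 families: 24 rows of Cyp6, 21 of Cyp4, 7 of Cyp12, 6 each of Cyp9 and Cyp313, 4 of Cyp28, 2 of Cyp309 and 1 row in each of the other 13 families.

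P450s are heme enzymes that pass oxygen from air onto a substrate, using electrons that come from a reductase. In insects the microsomal clans named 3 (Cyp6, Cyp9 and Cyp28 among others) and 4 (Cyp4 and Cyp313 among others) are best known for the breakdown of plant toxins, insecticides, fatty acids and odorants in gut, fat body, Malpighian tubule and antenna. Members of clan 2 and of the mitochondrial clan, to which Cyp12 belongs, include enzymes of hormone and cuticle metabolism beside detoxification enzymes. The ecdysteroid-making P450s carry other symbols (spo, dib, sad, shd) and are given here only as partners.

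All libraries came from total RNA of flies of the genotype W1118, a white-eyed laboratory strain, and the labels name the tissue as whole fly. The day 0 group was labelled as control, the vehicle group was taken at day 2 after feeding with vehicle, and the CHX group was taken at day 2 on food with 1 µM CHX, which stops elongation of PT (protein translation). Each of the 3 groups holds 6 libraries. In every group 3 library names carry a hyphen before their number and 3 do not. These are called the hyphenated and the unhyphenated name series, and the labels do not say what the series mark. The labels give neither the sex of the flies, the number pooled nor separate cultures, and no source used here ties single libraries to separate cohorts, so that p-values measure the spread between these libraries, which may be technical. Groups and times are those of the labels. The paper describes its RNA sequencing with other times and with paraquat, which no label names.

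Library totals ran from 21495631 to 38519240 counts over features. P450 rows took a median of 0.232% of counts at day 0 (0.226% to 0.251%), 0.271% with vehicle (0.204% to 0.371%) and 0.231% with CHX (0.1997% to 0.243%). Levels are given as CPM, counts per 1000000 counts of the library after scaling by TMM factors (a trimmed mean that sets most features level between libraries), and these factors were 0.892 to 0.916 at day 0, 1.24 to 1.31 with vehicle and 0.823 to 0.929 with CHX. In composition the vehicle libraries differed from the rest. Mitochondrially encoded genes held 5.70% to 8.12% of their counts, against 16.9% to 20.04% at day 0 and 15.6% to 21.8% with CHX.

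Tissue marker lists showed the same split. The summed level of 10 muscle genes, led by Mlc2 (mean 20970 CPM at day 0, 353 with vehicle and 21860 with CHX) and Mhc (17450, 368.1 and 18260 CPM), was 63330 to 74680 CPM at day 0, 980.5 to 1680.0 with vehicle and 67610 to 79970 with CHX. All 10 were lower in vehicle than at day 0, as were 8 of 8 neuron markers (led by Syt1 and nSyb, mean sum 569 against 153 CPM), 5 of 5 tested antenna markers (Obp28a and Obp83a, 82.3 against 27.7 CPM), 6 of 6 larval fat body markers (Fbp1 and Lsp1beta, 2062 against 32.6 CPM), 5 of 7 Malpighian tubule markers (ZnT35C and Oatp58Dc, 359 against 196 CPM), 9 of 11 eye markers (ninaE and Arr2, 2970 against 1838 CPM) and 2 of 3 oenocyte markers (FASN3 and FASN2, 747 against 428 CPM). All 8 tested cuticle genes of newly eclosed flies were lower as well (led by Acp1 and Cpr97Ea, mean sum 841 against 0.286 CPM, with 4 of 11 listed genes at 0 in every vehicle library). Ovary markers went the other way, 12 of 13 higher and 1 lower (led by Cp38 and Cp15, mean sum 288 against 9005 CPM), and so did 8 of 14 tested midgut markers, with 1 lower (Jon65Aiv and Jon65Aiii, 3126 against 6848 CPM). Of all features tested 41.8% were higher and 41.1% lower in vehicle than at day 0. Of 6 adult fat body markers 2 were lower and 4 did not pass (apolpp and FASN1, 2614 against 2480 CPM). Markers of the male reproductive tract (Mst87F and Mst98Ca the most abundant) were low in all 18 libraries. The sum over 14 genes was 10.4 CPM in 1 hyphenated day 0 library and at most 0.767 CPM in every other library. In each group 3 to 6 of the 14 were at 0 throughout. In the CHX libraries the sums were 73760 CPM for muscle, 574 for neuron, 88.8 for antenna, 928 for young cuticle, 3441 for midgut and 94.4 for ovary, and 7 of 13 ovary markers were lower than at day 0 while no gene of the other lists differed from day 0. Of all features 0.552% were lower with CHX than at day 0. In bulk RNA, fewer cells of a type and less RNA per cell cannot be told apart, and the part of this composition in the P450 results below was not tested.

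Of the 83 P450 rows 75 passed the filter on low counts, Cyp6t2Psi included. The other 8 were Cyp12d1-d, Cyp4d14 and Cyp9c1 with 0 counts in all libraries, Cyp4d2 with 4 counts over the 18 libraries, Cyp313a5 with 18, Cyp313a2 with 31, Cyp6a15Psi with 39 and Cyp4p2 with 109. Cyp4d14, Cyp4d2 and Cyp9c1 share 97.2%, 98.7% and 98.2% of their exon bases with opposite-strand genes, and Cyp4ae1, which passed with 627 counts, shares 88.3%. No source used here says if reads were counted by strand, so reads of such pairs cannot be told apart. Cyp12d1-d and Cyp12d1-p are near-identical copies, so that the level of Cyp12d1-p (0.793 ± 0.347 CPM at day 0, SD, n = 6) is uncertain.

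Among the P450 rows, with Cyp4g1 left out, Cyp6d5 had the highest group mean per kilobase in all 3 groups. Per kilobase of exon, the scale used to compare genes with one another, Cyp6d5 held a mean level of 174.7 CPM per kb at day 0 (12.2% of the P450 sum), 128.7 with vehicle (11.2%) and 179.6 with CHX (12.5%). The 10 highest P450 genes made up 60.4% of the P450 sum at day 0, 63.4% with vehicle and 61.3% with CHX. At day 0 they were Cyp6d5, Cyp12a4, Cyp313a1, Cyp9b2, Cyp6g1, Cyp9f2, Cyp6a23, Cyp6a20, Cyp28d1 and Cyp28a5 in that order. With CHX, Cyp4e2 stood among the 10 highest in place of Cyp28d1. With vehicle, Cyp6a19 held rank 2 (122.3 CPM per kb, 10.7% of the sum), and Cyp4e3, Cyp4p1 and Cyp4e2 stood at ranks 5, 7 and 9. In the hyphenated vehicle libraries Cyp6a19 lay above Cyp6d5, at 93.7 to 153.1 against 68.3 to 82.0 CPM per kb. In the unhyphenated ones it lay below, at 101.6 to 142.2 against 152.1 to 220.3.

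**Figure D1:**
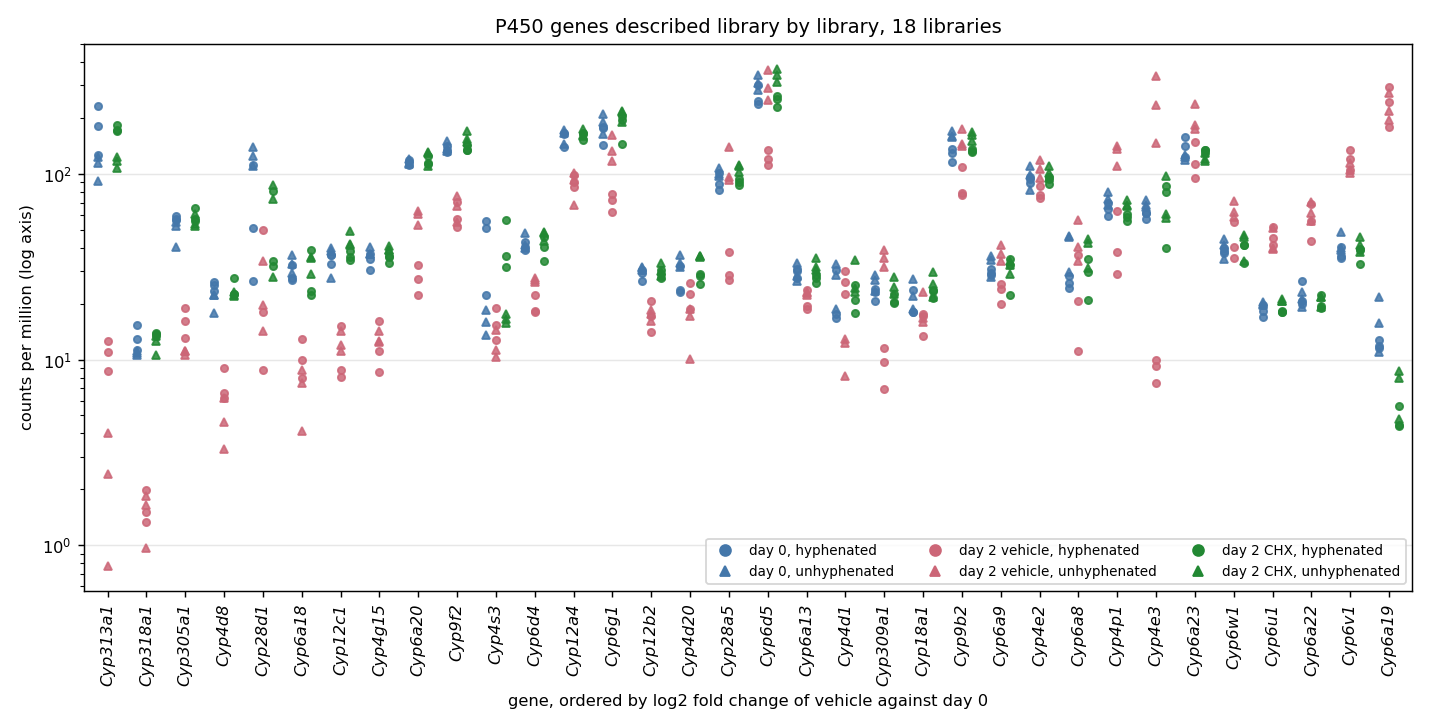
Level in CPM (log axis) of the 34 P450 genes described library by library, ordered by their log2 fold change of vehicle against day 0. Points are single libraries, colours the 3 groups, circles the hyphenated and triangles the unhyphenated name series. Vehicle libraries fall below both other groups at the left (Cyp313a1, 0.771 to 12.6 CPM) and rise above them at the right (Cyp6a19, 179 to 293 CPM), and day 0 and CHX libraries lie at like levels for most genes.

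The first comparison asks which P450 genes changed over the first 2 days of adult life on vehicle food. Of the 75 genes tested 49 were lower at day 2 than at day 0 and 8 were higher, which is 65.3% and 10.7% of them. Of all 11051 features tested 41.1% were lower and 41.8% were higher (edgeR quasi-likelihood test, Benjamini-Hochberg adjusted p under 0.05, as for every call below). The counts by family below stand beside these shares. The median log2 fold change was -0.72 over P450 genes and -0.0043 over all features. By more than 2-fold, 29 P450 genes fell and 6 rose, against 29.7% and 21.8% of all features. With library sizes in place of TMM factors the median of all features moved by 0.49 on the log2 scale, and 18 P450 genes were then higher and 31 lower, against 53.3% and 30.6% of all features. Of the genes called with TMM factors, Cyp18a1, Cyp4p3, Cyp6a13 and Cyp9b2 changed sign with that scaling. Within the unhyphenated libraries alone, or with libraries of 1 series number summed, 15 of 76 P450 genes tested were higher, against 38.0% and 39.2% of all features.

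**Figure D2:**
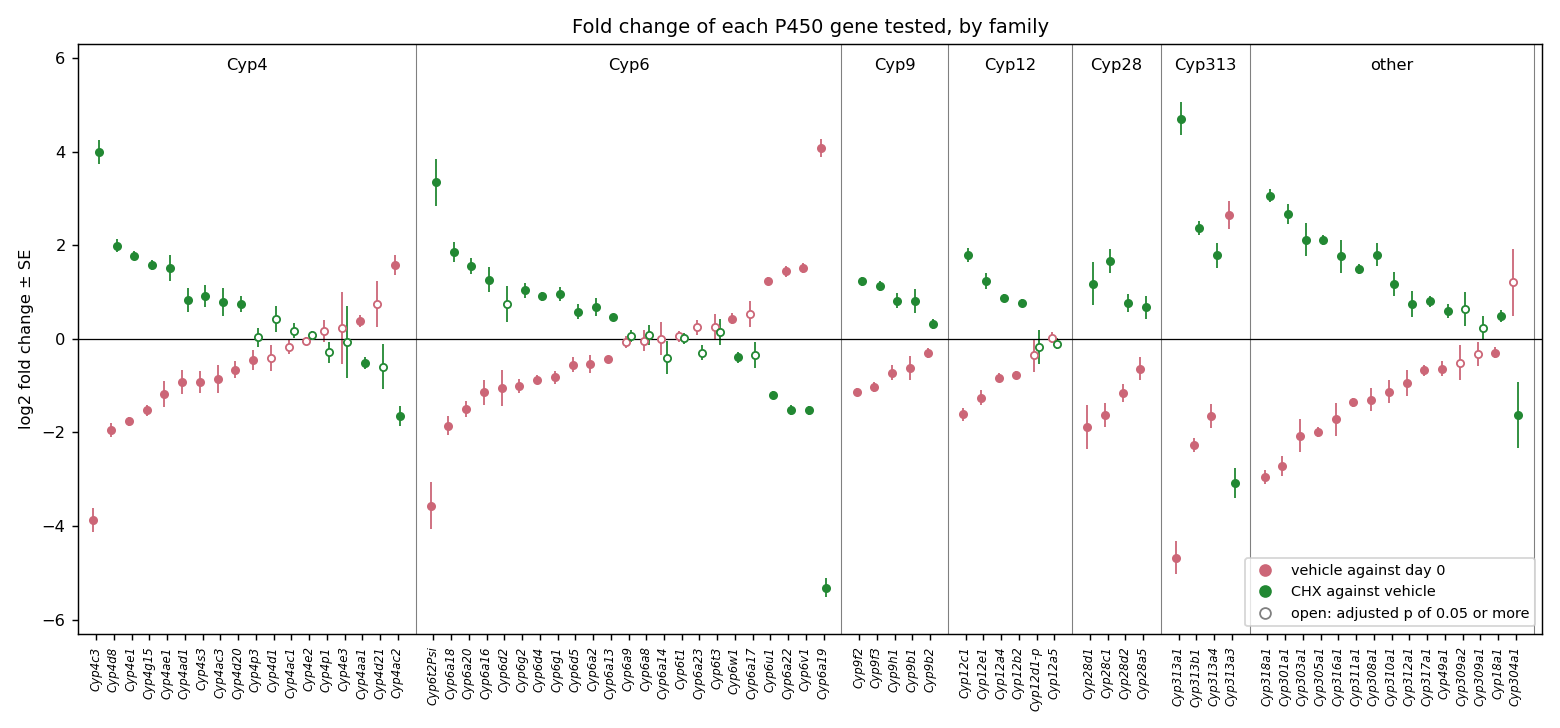
Log2 fold change with its SE for each of the 75 P450 genes tested, grouped by family and ordered by the change of vehicle against day 0. Red points are vehicle against day 0, green points CHX against vehicle, and open points did not pass an adjusted p of 0.05. All 5 Cyp9 and all 4 Cyp28 genes fell with vehicle, while Cyp6 spans -3.56 (Cyp6t2Psi) to 4.07 (Cyp6a19). Cyp9b2 turns to 0.20 with library sizes only, and Cyp28a5 to 0.10 within the unhyphenated libraries.

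The Cyp6 family, the largest detoxification family of the fly, split. Of 23 genes tested 5 rose with vehicle, 11 fell and 7 did not pass, with a median log2 fold change of -0.06. Cyp6a19 rose most of all P450 genes. Cyp6a19 ran from 11.03 to 21.7 CPM (median 12.3) at day 0, from 179 to 293 (median 232) with vehicle and from 4.38 to 8.699 (median 5.22) with CHX. Every vehicle library lay above every other library, the log2 fold change was 4.07 ± 0.20 (SE, adjusted p = 7.71e-13), and within each name series alone it was 4.31 and 3.82 (adjusted p = 6.30e-09 and 1.00e-06). The gene (FBgn0033979) lies on chromosome arm 2R from 14877786 to 14879752 on the plus strand with 2 exons (Ensembl BDGP6.54), and 397 of its exon bases overlap Cyp6a9 on the opposite strand. The fold change of Cyp6a9 was -0.06 ± 0.13 (adjusted p = 0.649).

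Cyp6v1, Cyp6a22 and Cyp6u1 also rose. For Cyp6v1 the day 0 libraries held 35.4 to 48.9 CPM (median 39.6), the vehicle libraries 101 to 135 (median 109.8) and the CHX libraries 32.8 to 45.95 (median 39.3). Cyp6a22 lay between 19.3 and 26.5 CPM at day 0 (median 20.9), between 43.7 and 70.3 with vehicle (median 58.8) and between 18.99 and 22.4 with CHX (median 20.6). With vehicle, Cyp6u1 spanned 39.5 to 51.95 CPM (median 43.5), against 16.99 to 20.4 (median 19.6) at day 0 and 18.1 to 21.3 (median 19.5) with CHX. No vehicle library overlapped a library of either other group for these genes. Their log2 fold changes were 1.51 ± 0.10, 1.44 ± 0.11 and 1.23 ± 0.085, with adjusted p-values between 3.37e-11 and 9.12e-11. Cyp6v1 shares 18.4% of its exon bases with an antisense RNA gene. Cyp6w1, which has been linked to insecticide resistance, rose less. Levels of Cyp6w1 were 35.02 to 44.5 CPM (median 38.99) at day 0, 35.4 to 71.4 (median 57.1) with vehicle and 33.2 to 46.7 (median 41.4) with CHX. Its vehicle and day 0 libraries overlapped, at a log2 fold change of 0.43 ± 0.13 (adjusted p = 0.00380).

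Among the Cyp6 genes that fell was Cyp6a20, which is made by support cells of the antenna and tunes aggression between males. For Cyp6a20 the day 0 libraries held 112 to 119.8 CPM (median 115.1), the vehicle libraries 22.2 to 62.99 (median 42.7) and the CHX libraries 110.3 to 131 (median 119.6). The vehicle libraries lay below all others, at -1.496 ± 0.17 (adjusted p = 1.30e-07), beside the antenna markers, whose summed level was 75.0 to 96.1 CPM at day 0 and 21.9 to 32.1 CPM with vehicle. Markers of muscle and neuron fell as well, and the part of the antenna in the fall of Cyp6a20 was not tested. Cyp6a18 lay between 26.8 and 36.5 CPM at day 0 (median 30.8), between 4.14 and 12.9 with vehicle (median 8.405) and between 22.2 and 39.03 with CHX (median 32.2). Cyp6d4 ran from 39.1 to 48.2 CPM (median 41.1) at day 0, from 18.04 to 27.5 (median 24.4) with vehicle and from 33.9 to 48.6 (median 44.6) with CHX. Levels of Cyp6a13 were 26.5 to 33.3 CPM (median 29.1) at day 0, 18.8 to 23.7 (median 22.6) with vehicle and 25.98 to 35.4 (median 29.4) with CHX. For these 3 genes too the vehicle and day 0 libraries did not overlap, with log2 fold changes of -1.86 ± 0.21, -0.87 ± 0.092 and -0.44 ± 0.083.

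Cyp6g1, whose overexpression gives resistance to DDT, and Cyp6d5 fell with overlapping libraries. With vehicle, Cyp6g1 spanned 62.5 to 163 CPM (median 97.7), against 144 to 211 (median 178) at day 0 and 145 to 218 (median 199.7) with CHX. For Cyp6d5 the day 0 libraries held 237 to 342 CPM (median 292), the vehicle libraries 112 to 361 (median 192) and the CHX libraries 231 to 369 (median 288). The log2 fold changes were -0.82 ± 0.15 (adjusted p = 4.02e-05) and -0.56 ± 0.16 (adjusted p = 0.00358), and the high vehicle libraries of both were the unhyphenated ones. Cyp6t2Psi, a pseudogene, fell by 3.56 on the log2 scale to 0.0915 ± 0.0695 CPM. Cyp6a16, Cyp6d2 (which shares 51.0% of its exon bases with the opposite-strand gene nsr), Cyp6g2 (a gene of the hormone-making corpora allata) and Cyp6a2 (a classic phenobarbital-inducible gene) fell from day 0 means of 1.09 to 5.59 CPM, at log2 fold changes of -1.15, -1.05, -1.01 and -0.55.

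The Cyp6 genes that did not pass include abundant ones. Cyp6a23 lay between 119 and 158 CPM at day 0 (median 125), between 95.2 and 238 with vehicle (median 162) and between 117 and 136 with CHX (median 129.7). Cyp6a9 ran from 27.7 to 35.96 CPM (median 30.03) at day 0, from 19.96 to 41.5 (median 29.8) with vehicle and from 22.4 to 34.9 (median 32.4) with CHX. Levels of Cyp6a8 were 24.5 to 46.4 CPM (median 28.9) at day 0, 11.1 to 56.7 (median 35.3) with vehicle and 20.9 to 44.5 (median 33.03) with CHX. Cyp6a8, inducible by phenobarbital and caffeine, had its lowest and its highest library both in the vehicle group. The fold changes were 0.25 ± 0.16, -0.06 ± 0.13 and -0.04 ± 0.22. Cyp6t1, Cyp6a14, Cyp6t3 (an ecdysteroid gene of the larval prothoracic gland) and Cyp6a17 (needed for normal temperature preference) had fold changes of 0.01 to 0.54 at means of 0.813 to 15.6 CPM at day 0.

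In the Cyp4 family, which hydroxylates fatty acids and related chains, 10 of 18 genes tested fell, 2 rose and 6 did not pass, with a median of -0.56. The steepest fall was that of Cyp4c3, from 3.66 ± 0.992 to 0.247 ± 0.121 CPM (SD, n = 6), at -3.87 ± 0.25 (adjusted p = 4.03e-11). Cyp4d8 lay between 17.9 and 26.1 CPM at day 0 (median 22.9), between 3.31 and 9.003 with vehicle (median 6.18) and between 22.1 and 27.6 with CHX (median 22.7). For Cyp4g15 the day 0 libraries held 30.5 to 40.3 CPM (median 37.02), the vehicle libraries 8.61 to 16.2 (median 12.5) and the CHX libraries 32.97 to 40.9 (median 37.5). Neither Cyp4d8 nor Cyp4g15 (the close relative of Cyp4g1 that is made in the nervous system) had a vehicle library as high as any at day 0, and they fell at -1.95 ± 0.14 and -1.53 ± 0.11. The sum of neuron markers was 384 to 719.7 CPM at day 0 and 109 to 214 CPM with vehicle. Markers of muscle and antenna fell as well, and the part of neurons in the fall of Cyp4g15 was not tested. Cyp4e1 fell with no overlap too, from 14.5 ± 1.11 to 4.28 ± 0.858 CPM.

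Falls of Cyp4d20 and Cyp4s3 came with overlapping libraries. Cyp4d20 ran from 23.2 to 36.4 CPM (median 31.6) at day 0, from 10.1 to 26.00 (median 18.7) with vehicle and from 25.4 to 36.2 (median 32.4) with CHX. Levels of Cyp4s3 were 13.6 to 56.1 CPM (median 20.4) at day 0, 10.4 to 18.9 (median 13.6) with vehicle and 15.8 to 56.8 (median 24.6) with CHX. The log2 fold changes were -0.66 ± 0.18 and -0.92 ± 0.24, and the high libraries of Cyp4s3 at day 0 and with CHX were hyphenated ones. Cyp4s3 shares 20.1% of its exon bases with Rab3-GEF on the opposite strand. Cyp4ae1, Cyp4ad1, Cyp4ac3 and Cyp4p3 fell from day 0 means of 1.41 to 12.7 CPM, at log2 fold changes of -1.18, -0.93, -0.85 and -0.45. The last had an adjusted p of 0.0479, and its call was lost without any 1 of day 0 replicates 1, 2 and 3, vehicle replicates 2, 3 and 4 and CHX replicates 1, 3, 4, 5 and 6 (adjusted p up to 0.122). Within the unhyphenated libraries Cyp4ac3 and Cyp4p3 were at 0.03 and 0.01.

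The 2 Cyp4 genes that rose were Cyp4ac2, from 3.32 ± 0.907 to 9.82 ± 2.38 CPM with no overlap (1.58 ± 0.21, adjusted p = 7.56e-07), and Cyp4aa1, from 10.9 ± 1.504 to 14.2 ± 2.75 CPM (0.38 ± 0.13). Cyp4aa1 shares 15.8% of its exon bases with the muscle gene Strn-Mlck on the opposite strand. Among the genes that did not pass, 4 were described library by library. For Cyp4e3 the day 0 libraries held 57.1 to 72.2 CPM (median 63.9), the vehicle libraries 7.46 to 339 (median 78.3) and the CHX libraries 40.01 to 97.9 (median 70.3). Cyp4p1 lay between 59.3 and 80.02 CPM at day 0 (median 68.9), between 28.97 and 142 with vehicle (median 86.9) and between 55.9 and 72.7 with CHX (median 64.2). Cyp4e2 ran from 81.9 to 111 CPM (median 94.8) at day 0, from 73.9 to 119 (median 90.7) with vehicle and from 88.6 to 110.4 (median 96.2) with CHX. In Cyp4e3 and Cyp4p1 the vehicle libraries lay on both sides of the day 0 libraries, and their fold changes were 0.23 ± 0.77 and 0.17 ± 0.23. Levels of Cyp4d1 were 16.7 to 32.9 CPM (median 23.6) at day 0, 8.12 to 29.98 (median 17.8) with vehicle and 17.9 to 34.3 (median 23.6) with CHX. Cyp4d1 and Cyp4e2 had fold changes of -0.41 ± 0.28 and -0.05 ± 0.091, and Cyp4ac1 and Cyp4d21, the latter a male-biased gene of the fat body of the head, had -0.18 ± 0.16 and 0.75 ± 0.49.

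Cyp313 held the P450 gene with the largest fall. Cyp313a1 ran from 92.00 to 233 CPM (median 125) at day 0, from 0.771 to 12.6 (median 6.35) with vehicle and from 107 to 183 (median 146) with CHX. Every vehicle library lay below every other library, and the log2 fold change was -4.67 ± 0.35 (adjusted p = 1.23e-09). The gene (FBgn0038236), on chromosome arm 3R from 14521049 to 14523064 on the plus strand with 7 exons, ranked 3 among P450 genes per kilobase at day 0 and left the highest 10 with vehicle. Cyp313b1 and Cyp313a4 fell from 11.7 ± 1.26 and 11.9 ± 3.78 CPM to 2.41 ± 0.562 and 3.74 ± 2.09 CPM. Cyp313a3 went the other way at a low level, from 0.211 ± 0.0957 to 1.35 ± 0.368 CPM (2.64 ± 0.30).

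All 5 Cyp9 genes and all 4 Cyp28 genes tested fell. For Cyp9f2 the day 0 libraries held 131 to 151 CPM (median 136), the vehicle libraries 52.1 to 75.8 (median 62.5) and the CHX libraries 134 to 170.3 (median 146). With vehicle, Cyp9b2 spanned 77.5 to 174 CPM (median 126), against 116 to 170.2 (median 147) at day 0 and 131 to 168 (median 144) with CHX. Cyp9f2 separated the groups (-1.14 ± 0.088), while Cyp9b2 overlapped and fell by a small step (-0.29 ± 0.11, adjusted p = 0.0169). Its call was lost without any 1 of vehicle replicates 2 and 3 (adjusted p up to 0.0577), and with library sizes in place of TMM factors its fold change was 0.20. Cyp9f3, Cyp9h1 and Cyp9b1 fell from day 0 means of 8.81 to 10.8 CPM, at -1.03, -0.72 and -0.62, and the call of Cyp9b1 was lost without any 1 of day 0 replicates 3 and 5 and vehicle replicates 1, 2 and 3 (adjusted p up to 0.0759). Cyp28d1 ran from 26.6 to 140.1 CPM (median 111) at day 0, from 8.83 to 49.9 (median 18.9) with vehicle and from 28.00 to 86.8 (median 53.5) with CHX. Cyp28a5 lay between 82.03 and 108 CPM at day 0 (median 98.9), between 26.7 and 139.8 with vehicle (median 65.2) and between 87.5 and 111 with CHX (median 97.97). Both Cyp28d1, which acts in nicotine tolerance, and Cyp28a5 had wide vehicle ranges, and their fold changes were -1.89 ± 0.47 (adjusted p = 0.00147) and -0.64 ± 0.25 (adjusted p = 0.0244). Without any 1 of day 0 replicate 1 and vehicle replicates 1, 2 and 3 (adjusted p up to 0.0765) the Cyp28a5 call was lost, and within the unhyphenated libraries its fold change was 0.10. Cyp28c1 and Cyp28d2 were low, at 1.302 ± 0.210 and 1.803 ± 0.396 CPM at day 0, and fell at -1.64 and -1.16.

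In the mitochondrial clan 6 of 8 genes tested fell and none rose. These 75.0% stand beside 65.3% of all P450 genes tested and 41.1% of all features. For Cyp12a4 the day 0 libraries held 139 to 172 CPM (median 165), the vehicle libraries 68.1 to 101 (median 91.9) and the CHX libraries 153 to 174 (median 163). Cyp12c1 lay between 27.4 and 39.7 CPM at day 0 (median 36.4), between 8.06 and 15.2 with vehicle (median 11.6) and between 34.2 and 49.3 with CHX (median 39.9). Levels of Cyp12b2 were 26.5 to 31.5 CPM (median 30.4) at day 0, 14.1 to 20.6 (median 17.4) with vehicle and 27.4 to 33.2 (median 29.5) with CHX. Cyp12a4, a gene of lufenuron resistance, Cyp12c1 and Cyp12b2 all separated the vehicle libraries from the rest, at -0.83 ± 0.090, -1.61 ± 0.14 and -0.78 ± 0.085. Cyp12e1 fell at -1.26 from 18.8 ± 4.91 CPM, and Cyp12a5 (0.02 ± 0.11) and Cyp12d1-p (-0.35 ± 0.35) did not pass. The clan also holds Cyp49a1, which fell at -0.64, and Cyp301a1, a gene of adult cuticle formation, which fell from 11.7 ± 0.921 to 1.79 ± 0.790 CPM (-2.71 ± 0.21). The cuticle genes of newly eclosed flies fell beside Cyp301a1, to a summed level of at most 0.363 CPM. Other marker lists fell as well, and their part in the fall of Cyp301a1 was not tested.

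Of the 15 tested genes in the families with 1 or 2 members 12 fell and none rose. These 80.0% include Cyp49a1 and Cyp301a1 of the mitochondrial clan, and 65.3% of all P450 genes tested and 41.1% of all features fell. Cyp318a1 ran from 10.6 to 15.3 CPM (median 11.2) at day 0, from 0.972 to 1.97 (median 1.58) with vehicle and from 10.6 to 13.8 (median 13.4) with CHX. Levels of Cyp305a1 were 40.2 to 59.7 CPM (median 55.8) at day 0, 10.6 to 18.99 (median 12.1) with vehicle and 52.7 to 65.7 (median 56.4) with CHX. For Cyp18a1 the day 0 libraries held 17.99 to 27.3 CPM (median 20.5), the vehicle libraries 13.4 to 23.3 (median 16.9) and the CHX libraries 21.5 to 29.8 (median 23.6). Cyp318a1 and Cyp305a1 fell with no overlap (-2.95 ± 0.15 and -1.997 ± 0.11). Cyp18a1, the enzyme that inactivates ecdysteroids, overlapped (-0.30 ± 0.12, adjusted p = 0.0285), and its call was lost without any 1 of day 0 replicates 1 and 5 and vehicle replicates 3, 4 and 6 (adjusted p up to 0.0859). With library sizes only its fold change was 0.20. Cyp303a1, needed for bristle development and eclosion, fell at -2.08 from 1.62 ± 0.227 CPM, and it shares 33.0% of its exon bases with heix on the opposite strand. Cyp316a1, Cyp311a1, Cyp308a1, Cyp310a1, Cyp312a1 and Cyp317a1 fell at log2 fold changes of -1.72 to -0.68 from day 0 means of 0.567 to 11.9 CPM. The 3 that did not pass were Cyp309a1, Cyp309a2 (-0.51 ± 0.37) and Cyp304a1. With vehicle, Cyp309a1 spanned 6.98 to 39.1 CPM (median 21.5), against 20.7 to 28.7 (median 23.8) at day 0 and 20.2 to 27.8 (median 22.6) with CHX. Its vehicle libraries lay both below and above all day 0 libraries, at -0.33 ± 0.26. Cyp304a1 was at 3.700 ± 1.39 CPM at day 0 and 10.99 ± 13.1 CPM with vehicle.

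The summed level of a family weighs its abundant genes. The summed level per kilobase of the Cyp313 family went from 102.3 ± 34.5 CPM per kb at day 0 to 8.25 ± 3.96 with vehicle and 103.6 ± 22.0 with CHX (SD, n = 6). The sums of Cyp12 (148 ± 13.7, 80.7 ± 8.96 and 152 ± 10.2 CPM per kb), Cyp9 (182 ± 15.03, 118 ± 30.2 and 190.1 ± 16.7) and Cyp28 (114.6 ± 32.3, 55.5 ± 26.0 and 92.3 ± 18.5) were lower with vehicle on average. Those of Cyp4 (241 ± 3.72, 238 ± 109 and 243 ± 16.5) and Cyp6 (559 ± 36.3, 604 ± 127 and 569.8 ± 56.4) had like means and a wider spread with vehicle. Within the vehicle group the Cyp4 sum was 132 to 171 in hyphenated and 267 to 397 in unhyphenated libraries, and the Cyp6 sum was 481 to 509 and 686 to 758. With library sizes in place of TMM factors the vehicle means of Cyp4 and Cyp6 were 306 and 773 CPM per kb, against 218 and 504.8 at day 0, so that the Cyp4 mean lay above that of day 0 with this scaling and below it with TMM factors. The mean sum over all P450 rows turned too. With TMM factors it was 1427 CPM per kb at day 0 and 1146 with vehicle. With library sizes only it was 1290 at day 0 and 1467 with vehicle.

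**Figure D3:**
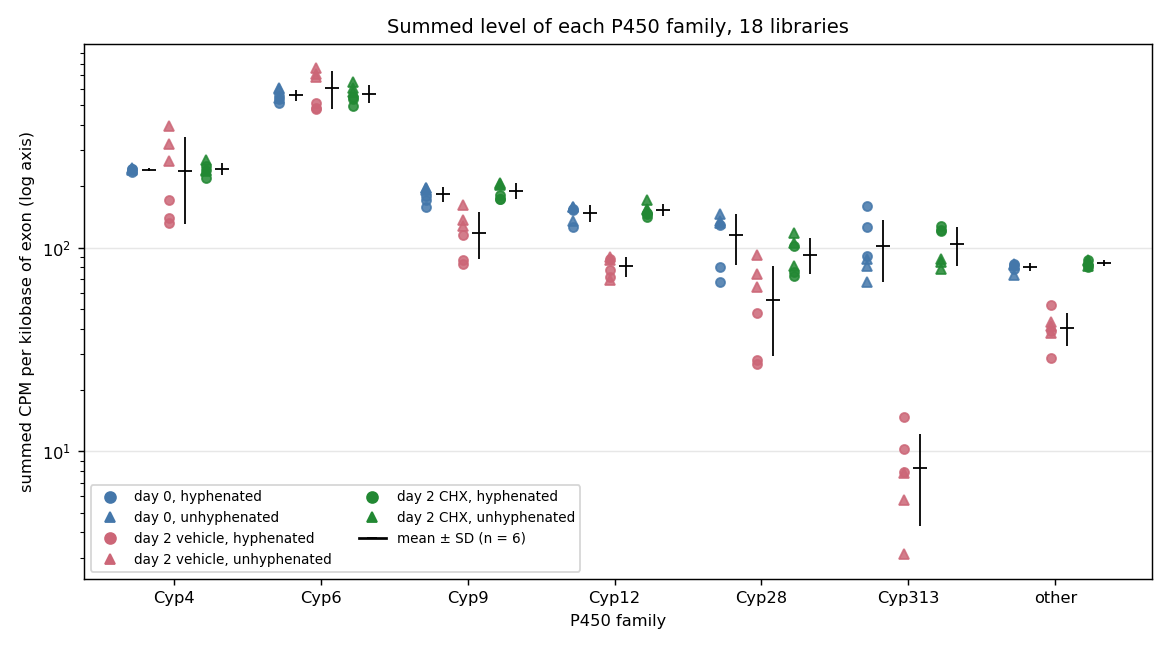
Summed level of each P450 family in CPM per kilobase of exon (log axis), with 1 point per library, circles for hyphenated and triangles for unhyphenated names, and the mean ± SD of 6 libraries beside them. Cyp313 drops to a vehicle mean of 8.25 CPM per kb, while the vehicle libraries of Cyp4 divide by name series, 132 to 171 against 267 to 397.

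The second comparison asks what CHX in the food did at day 2. Of 75 P450 genes 47 were higher with CHX than with vehicle (62.7%) and 9 were lower, where 42.0% and 41.3% of all features were called higher and lower. The counts by family in the next paragraph stand beside these shares. The median log2 fold change was 0.77 over P450 genes and 0.02 over all features. With library sizes only, 30 were higher and 20 lower, against 30.4% and 54.1% of all features, whose median moved to -0.53. Within the unhyphenated libraries alone 15 of 76 were lower, against 38.1% of all features. This comparison shares the vehicle libraries with the first, so the 2 sets of fold changes are not independent and are given side by side.

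By family, 10 Cyp6 genes were higher with CHX and 5 lower of 23, 9 Cyp4 genes higher and 2 lower of 18, all 5 Cyp9 and all 4 Cyp28 genes higher, 4 Cyp12 genes higher of 6, and 3 Cyp313 genes higher and 1 lower of 4. The largest differences were those of Cyp6a19 (-5.32 ± 0.21, adjusted p = 3.91e-14), Cyp313a1 (4.70 ± 0.35, adjusted p = 1.09e-09), Cyp4c3 (3.98 ± 0.25), Cyp6t2Psi (3.35 ± 0.50), Cyp313a3 (-3.08 ± 0.32) and Cyp318a1 (3.06 ± 0.15). Cyp6v1, Cyp6a22, Cyp6u1 and Cyp4ac2 were lower with CHX, at -1.53, -1.52, -1.20 and -1.65. Among abundant genes, Cyp9f2 (1.23 ± 0.088), Cyp12a4 (0.87 ± 0.090), Cyp6a20 (1.55 ± 0.17), Cyp6g1 (0.96 ± 0.15), Cyp6d5 (0.57 ± 0.16) and Cyp9b2 (0.32 ± 0.11) were higher. Cyp304a1, which did not pass against day 0, was lower with CHX than with vehicle, at -1.62 ± 0.71 (adjusted p = 0.0439). Its call was lost without any 1 of day 0 replicates 1, 2, 3, 4, 5 and 6, vehicle replicates 1 and 2 and CHX replicates 1, 2, 3 and 6 (adjusted p up to 0.116), and within the unhyphenated libraries its fold change was 0.73. Calls were also lost for Cyp28a5 without any 1 of vehicle replicates 2 and 3 (adjusted p up to 0.0575), for Cyp4ac3 without vehicle replicates 1, 2 and 3 (adjusted p up to 0.0683), for Cyp28d1 without vehicle replicates 4 and 6 and CHX replicates 3 and 6 (adjusted p up to 0.0881) and for Cyp312a1 without CHX replicate 6 (adjusted p 0.0764). Cyp18a1, Cyp6a13 and Cyp9b2, higher with CHX with TMM factors, were at -0.07, -0.10 and -0.23 with library sizes only.

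The inducible genes were looked at as a list of 8: Cyp6a2, Cyp6a8, Cyp6g1, Cyp6w1, Cyp6d5, Cyp28d1 and the Cyp12d1 pair, which respond to phenobarbital, caffeine, nicotine or insecticides. Of the 7 tested 4 were higher with CHX than with vehicle and 1 (Cyp6w1, -0.40 ± 0.13) was lower, with a median of 0.57. Of all 75 P450 genes tested 47 were higher and 9 lower, and of all features 42.0% and 41.3%. Whether the list differed from other P450 genes was not tested. None of the 7 differed between CHX and day 0, where 0.0% of all features were called higher and 0.552% lower.

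The third comparison sets day 2 on CHX against day 0. No P450 gene was higher and 1 was lower, in a comparison where 0.0% of all features were called higher and 0.552% lower. At an unadjusted p under 0.05 there were 3 P450 genes, against 4.86% of all features, and DESeq2 called 0 higher and 1 lower, against 0.0% and 1.13%. The 1 gene was Cyp6a19, which fell by 1.24 on the log2 scale (SE 0.19, adjusted p = 0.00144). All 6 CHX libraries (4.38 to 8.70 CPM) lay below all 6 day 0 libraries (11.03 to 21.7 CPM). Within the hyphenated libraries alone the difference was -1.31 (adjusted p = 0.0111), and within the unhyphenated ones -1.18 (adjusted p = 0.274, 3 libraries against 3). Of the 75 genes 61 had a log2 difference within 0.2 of 0 and 72 within 0.5. Besides Cyp6a19, those beyond 0.5 were Cyp28d1 (-0.72 ± 0.45) and Cyp12d1-p (-0.53 ± 0.36), neither of which passed. That a gene did not pass does not show that its level was the same.

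The largest tandem array shows genes side by side that took different directions. P450 genes under 10000 bases apart form 16 clusters with 45 of the 83 rows, and the largest holds 8 genes on chromosome arm 2R between positions 14871366 and 14903095 (Ensembl BDGP6.54). In order along the chromosome the fold changes of vehicle against day 0 were 1.44 for Cyp6a22, 0.54 for Cyp6a17, 0.25 for Cyp6a23, 4.07 for Cyp6a19, -0.06 for Cyp6a9, -1.496 for Cyp6a20, -0.04 for Cyp6a8 and -0.68 for Cyp317a1. Cyp6a22 and Cyp6a19 rose, Cyp6a20 and Cyp317a1 fell, and the other 4 did not pass. Cyp317a1 shares 32.6% of its exon bases with Kank on the opposite strand. In the Cyp4ac cluster Cyp4ac2 rose, Cyp4ac3 fell and Cyp4ac1 did not pass. These were the 2 clusters with calls in both directions, of 13 with at least 2 tested members. In 5 clusters all tested members fell, namely the pairs of Cyp28d, Cyp9b, Cyp9f, Cyp311a1 with Cyp318a1, and Cyp316a1 with Cyp4d8. Of all P450 genes tested 65.3% fell, and of all features 41.1%. Whether neighbours share a direction more often than other P450 genes was not tested.

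**Figure D4:**
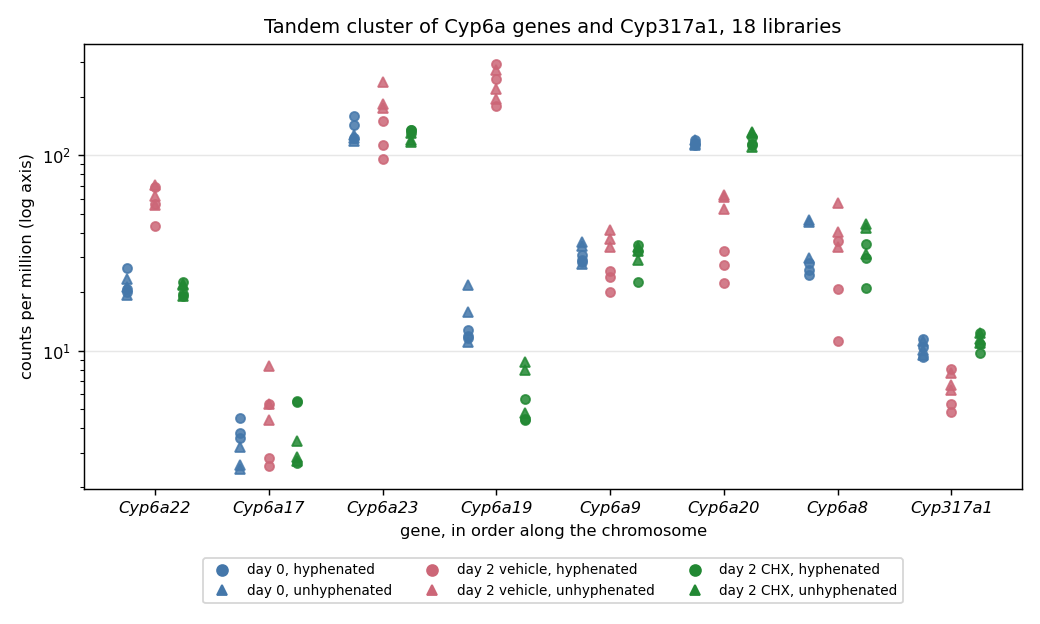
Level in CPM (log axis) in each library for the 8 genes of the largest P450 cluster, in chromosome order. Cyp6a19 lies between 179 and 293 CPM with vehicle and at 21.7 CPM or less elsewhere, its neighbour Cyp6a9 at like levels in all groups, and Cyp6a20 lower with vehicle.

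The name series were then compared within each group, 3 libraries against 3. Between unhyphenated and hyphenated libraries 22 of 75 P450 genes differed with vehicle, 16 higher and 6 lower in the unhyphenated ones, where 6.28% of all features differed. At day 0 there were 2 (Cyp4s3, -1.43 ± 0.28, and Cyp4ac3, -1.03 ± 0.21, both lower in unhyphenated libraries), against 0.489% of all features. With CHX edgeR called 0 P450 genes and 0.299% of all features. At an unadjusted p under 0.05 there were 8 P450 genes and 10.7% of all features, DESeq2 called 2 P450 genes and 1.47% of all features, and 1 gene was called without day 0 replicate 1 or 2, CHX replicate 1 or vehicle replicate 1. The count at day 0 was 0 without any 1 of day 0 replicates 2 to 6 and 1 without day 0 replicate 1 or CHX replicate 2, and leaving out a library brought that with vehicle to between 17 and 23. Cyp4s3 was at 22.2 to 56.1 CPM in hyphenated and 13.6 to 18.6 CPM in unhyphenated day 0 libraries.

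Cyp4e3 (FBgn0015035, chromosome arm 2L, 9747839 to 9750071 on the minus strand, 6 exons) differed most. In the vehicle group it was at 7.46 to 9.91 CPM in hyphenated and 147 to 339 CPM in unhyphenated libraries, a log2 difference of 4.76 ± 0.33 (adjusted p = 1.60e-07). At day 0 the series held 57.1 to 61.6 and 66.2 to 72.2 CPM. Against day 0 the gene fell by 2.75 on the log2 scale within the hyphenated libraries (adjusted p = 1.23e-06) and rose by 1.80 within the unhyphenated ones (adjusted p = 3.37e-04).

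The other genes that were higher in unhyphenated vehicle libraries were Cyp6d2 (2.19 ± 0.47), Cyp309a1 (1.90 ± 0.16), Cyp28a5 (1.82 ± 0.16), Cyp4p1 (1.57 ± 0.20), Cyp9b1 (1.45 ± 0.27), Cyp6d5 (1.30 ± 0.14), Cyp6a20 (1.12 ± 0.12), Cyp6g1 (0.96 ± 0.15), Cyp4ac3 (0.93 ± 0.21), Cyp9b2 (0.80 ± 0.13), Cyp6a23 (0.74 ± 0.15), Cyp6a9 (0.70 ± 0.15), Cyp6w1 (0.55 ± 0.16), Cyp6d4 (0.46 ± 0.12) and Cyp4e2 (0.44 ± 0.12). Cyp6d5 was at 112 to 134 CPM in the hyphenated and 249 to 361 CPM in the unhyphenated vehicle libraries. Cyp28a5 was at 26.7 to 37.97 and 92.5 to 139.8 CPM, and Cyp309a1 at 6.98 to 11.6 and 31.4 to 39.1 CPM. The 6 genes that were lower in unhyphenated libraries were Cyp304a1 (-3.37 ± 0.50), Cyp313a1 (-2.15 ± 0.36), Cyp4d21 (-2.15 ± 0.56), Cyp4ad1 (-1.41 ± 0.28), Cyp4d1 (-1.24 ± 0.26) and Cyp305a1 (-0.55 ± 0.14). Some of these calls were lost when 1 library was left out: that of Cyp6w1 without any 1 of day 0 replicates 1, 2, 3, 5 and 6, vehicle replicates 2, 3, 4, 5 and 6 and CHX replicates 2, 4 and 6 (adjusted p up to 0.193), of Cyp305a1 without vehicle replicates 1, 2, 4, 5 and 6 (adjusted p up to 0.0837), of Cyp6d4 without vehicle replicates 2, 3, 4, 5 and 6 (adjusted p up to 0.136), of Cyp4e2 without vehicle replicates 1, 2, 4 and 6 (adjusted p up to 0.162), of Cyp4ac3 without vehicle replicates 2, 3 and 6 (adjusted p up to 0.0701) and of Cyp4d21 without vehicle replicates 1, 2 and 4 (adjusted p up to 0.0960).

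**Figure D5:**
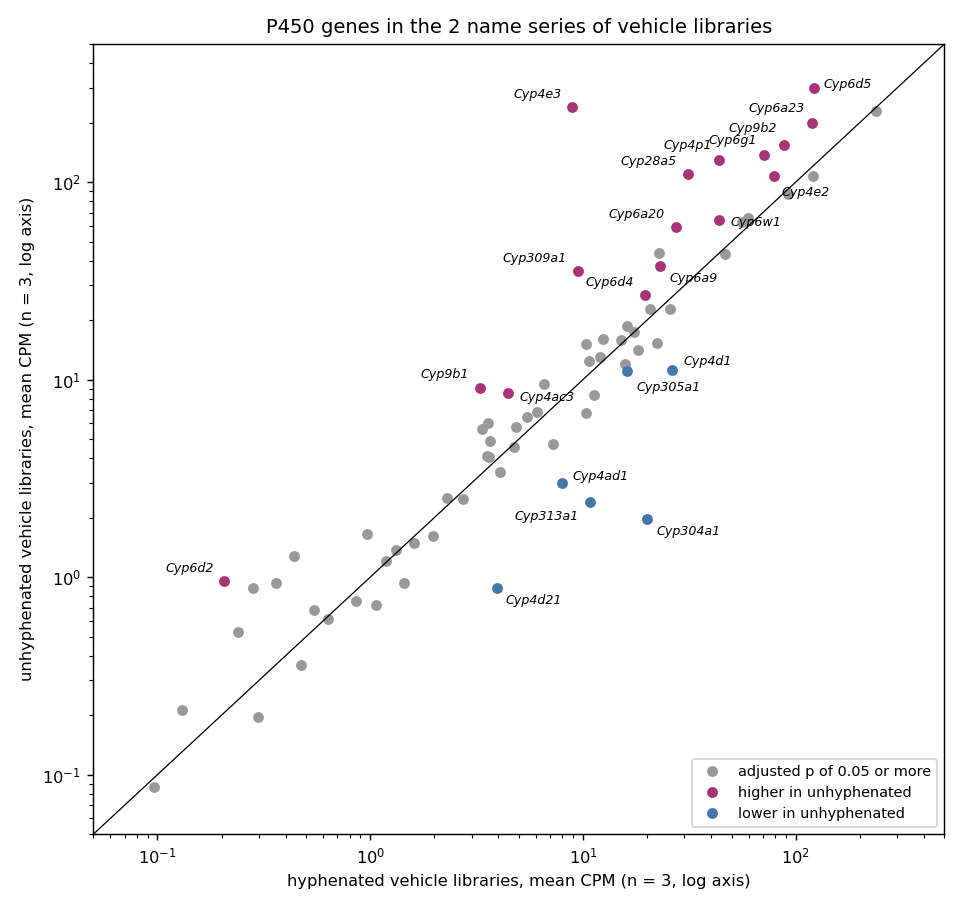
Mean CPM of the 75 P450 genes tested in the 3 hyphenated (x axis) and the 3 unhyphenated (y axis) vehicle libraries, both axes logarithmic, with the line of equal levels. Purple genes were higher (16) and blue genes lower (6) in the unhyphenated libraries, and Cyp4e3 lies farthest from the line.

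By family, 8 of 23 Cyp6, 4 of 18 Cyp4, 2 of 5 Cyp9 and 1 of 4 Cyp28 genes were higher in unhyphenated vehicle libraries, 3 Cyp4 genes and 1 of 4 Cyp313 genes were lower, and no gene of the mitochondrial clan differed. Of all features 6.28% differed between these series in either direction, and the counts of this paragraph stand beside that share. Of the inducible list 3 of 7 were higher, beside 21.3% of all P450 genes tested. The summed adult fat body markers moved with the series, at 2492 to 5017 CPM in hyphenated and 844.6 to 2111 CPM in unhyphenated vehicle libraries (3 of 6 lower and 1 higher). Sums of midgut markers overlapped between the series (5339 to 12960 and 4472 to 5815 CPM, 2 of 14 lower and 1 higher). Ovary sums did not overlap, at 7202 to 15200 CPM in hyphenated and 5313 to 6269 CPM in unhyphenated vehicle libraries. No muscle, ovary, eye, neuron, antenna, Malpighian tubule, oenocyte, larval fat body or young cuticle marker passed between the series. The part of these markers in the P450 differences was not tested.

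Fitted within each series alone, vehicle against day 0 gave 34 P450 genes lower in both series and 6 higher in both, where 33.1% and 34.6% of all features were called so. In 4 P450 genes, against 0.66% of all features, the calls were opposite: Cyp4e3, Cyp309a1 and Cyp4p1 fell in hyphenated and rose in unhyphenated libraries, and Cyp304a1 did the reverse (2.89 and -1.27). For CHX against vehicle, 36 were higher and 6 lower in both series (33.6% and 33.9% of all features), and Cyp4e3 and Cyp309a1 were called in opposite directions (0.687% of all features). Tested directly, the change from day 0 to vehicle differed between the series for 10 P450 genes, 8 with a higher and 2 with a lower value in unhyphenated libraries, where 3.41% of all features differed. The change from vehicle to CHX differed for 11, 3 higher and 8 lower, against 3.57% of all features, and this count was 18 without CHX replicate 1 and 7 without CHX replicate 3 or 5. Cyp304a1 was at 6.38 to 33.3 CPM in hyphenated and 1.23 to 3.33 CPM in unhyphenated vehicle libraries. Cyp4d21 was at 3.15 to 5.21 and 0.0571 to 1.76 CPM.

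Genes that work with P450s were described as 5 lists. For vehicle against day 0, 41.8% of all features were called higher and 41.1% lower, and the counts below stand beside these shares. Cpr, the reductase that feeds electrons to all microsomal P450s, was at 500.5 ± 17.4 CPM at day 0, 423 ± 61.0 with vehicle and 506 ± 35.5 with CHX (SD, n = 6), a log2 change of -0.25 with vehicle (adjusted p = 0.0119). Of 6 electron donors 3 fell with vehicle, 1 rose and 2 did not pass, with a median of -0.10. The others that fell were Cyt-b5-r (411 to 215 CPM, -0.94) and Cyt-b5 (274 to 232 CPM, -0.24), and dare, the adrenodoxin reductase that serves mitochondrial P450s, rose. The partner lists were looked at with TMM factors only. With library sizes only the median of all features moved up by 0.49 on the log2 scale, more than the falls of Cpr and Cyt-b5. Of 7 enzymes of heme synthesis 4 rose with vehicle and none fell. Alas, the first enzyme of the pathway, was at 148 and 152 CPM (adjusted p = 0.98) and Urod at 61.1 and 67.8 CPM (adjusted p = 0.123).

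Of 12 regulators of xenobiotic and hormone responses 8 rose with vehicle and 3 fell, with a median of 0.31. The xenobiotic regulator cnc (255 to 312 CPM, 0.29) and the ecdysone receptor partner usp (47.4 to 106 CPM, 1.17) rose, and foxo, the transcription factor of insulin signaling, fell (121 to 100.2 CPM, -0.27). This fall of foxo too was smaller than the 0.49 by which library sizes only moved the median of all features. Of 6 genes of juvenile hormone metabolism 4 were tested and 2 fell: the juvenile hormone esterase gene Jhe (12.1 to 0.464 CPM, -4.73) and its neighbour Jhedup (23.7 to 7.09 CPM, -1.73), whereas Jheh3 was at 31.9 and 30.9 CPM. Of 5 tested genes in the list of ecdysteroid-making P450s, spo (1.35 to 4.65 CPM) rose, shd (3.34 to 1.70 CPM) fell and 2 did not pass. The remaining gene, ph-d (12.03 to 19.1 CPM), also rose but is not a P450 gene. Every count of this list includes ph-d. In all 5 lists no gene differed between CHX and day 0, where 0.0% of all features were called higher and 0.552% lower. For CHX against vehicle those shares were 42.0% and 41.3%. With CHX against vehicle the lists held 3, 1, 1, 3 and 2 genes that were higher, and 1, 4, 2, 7 and 0 that were lower, in the order electron donors, heme synthesis, ecdysteroid synthesis, regulators and juvenile hormone metabolism.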

How the data were processed

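RNA of whole flies was sequenced in 18 libraries, 6 in each of 3 groups. The authors deposited raw counts per feature for each library, and the submitters' processing notes name the build BDGP6 and the tools HTSeq 0.12.3, STAR 2.7.10a and bcl2fastq 2.18.0.12. No source used here gives the annotation or the strand setting. Rows for reads without a feature held 8.46% to 11.6% of the total and were left out of library sizes. Reads shared by overlapping or near-identical genes may be split or lost by such counting.

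Symbols, positions and exon lengths came from Ensembl release 115 (BDGP6.54). Counts were filtered with filterByExpr, scaled by TMM factors and fitted with edgeR 4.0.16 (R 4.3.3, robust quasi-likelihood F test) over all 18 libraries, with group and name series as terms. Comparisons of name series used a fit with 1 mean per group and series, 3 libraries each. P-values were adjusted by Benjamini-Hochberg over 11051 features, and the threshold was 0.05. The SE of a fold change is its size divided by the square root of F. CPM are counts per 1000000 counts of the tested features after TMM scaling, and sums per kilobase divide by the merged exon length. The precision of each value rests on 6 or 3 libraries and on totals of 21495631 to 38519240 counts. No 2 libraries of a group agreed within sampling noise (lowest chi-square per degree of freedom 11.3). The scripts were tested on simulated data.

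The members and all 17 lists (12 of tissue markers and 5 of partner genes, 147 symbols, each matched to a row by symbol or synonym) were chosen with earlier results of these data known. Values in each library are given, as lowest, median and highest, for the 34 genes with a group mean of at least 20 CPM, or that passed with a log2 fold change over 3 and a group mean of at least 5 CPM. Of the partner lists, up to 3 genes by mean level were named, 1 gene that this rule names is not reported here, and dare was added after its values were seen. Marker lists are given by sums, with their 2 most abundant genes by mean level over the groups named, and the levels of these only for muscle. Alternatives were other scalings (RLE, upper quartile, library sizes only), DESeq2 1.42.0, limma-voom 3.58.1, other filters and sample sets, a replicate block, a fold threshold and leaving out each library. Gene and protein sequences were not analysed here.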

Additional observations from a re-analysis of the deposited data

Results flagged for a closer look

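In 2 of the 102 groups of 6 libraries checked (34 genes in 3 groups) 1 library lay far from the rest, where chance alone flags about 1 group in 20. Cyp4d8 was at 27.5 CPM in CHX replicate 1, with the nearest library at 23.2 CPM. Cyp6v1 was at 48.9 CPM in day 0 replicate 6, with the nearest library at 40.2 CPM.

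For 10 P450 genes the log2 change from day 0 to vehicle differed between the name series (edgeR interaction term over 3 libraries per group and series). The difference, unhyphenated minus hyphenated, was 4.56 for Cyp4e3, 1.96 for Cyp4ac3, 1.69 for Cyp309a1, 1.64 for Cyp28a5, 1.38 for Cyp4p1, 1.12 for Cyp6a20, 1.04 for Cyp6d5, 0.94 for Cyp6a23, -1.55 for Cyp4d1 and -4.16 for Cyp304a1. Adjusted p-values ran from 1.41e-05 (Cyp4e3) to 0.0216 (Cyp4d1).

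For 11 genes the change from vehicle to CHX differed as well, by -4.69 for Cyp4e3, -1.81 for Cyp4ac3, -1.66 for Cyp309a1, -1.56 for Cyp28a5, -1.33 for Cyp4p1, -1.04 for Cyp6a20, -0.86 for Cyp6a23, -0.84 for Cyp6d5, 1.48 for Cyp4ad1, 1.59 for Cyp4d1 and 3.69 for Cyp304a1. Both differences use the same vehicle libraries. In the first set the calls of Cyp4d1 and Cyp6a23 were lost without any 1 of day 0 replicates 2, 3 and 6 and vehicle replicate 6 (adjusted p up to 0.0715) and of day 0 replicate 2 and vehicle replicate 2 (adjusted p up to 0.0592). In the second set that of Cyp4ad1 was lost without any 1 of day 0 replicates 1, 3, 5 and 6, vehicle replicates 1, 2, 4 and 6 and CHX replicates 2, 3, 4, 5 and 6 (adjusted p up to 0.119), of Cyp6a23 without vehicle replicates 2, 3 and 5 and CHX replicates 2, 3, 4 and 5 (adjusted p up to 0.0770), of Cyp6d5 without vehicle replicates 2 and 4 and CHX replicates 3 and 5 (adjusted p up to 0.0729) and of Cyp4d1 without CHX replicates 2, 3 and 5 (adjusted p up to 0.0690). What the name series mark is not in the labels, and its part in these differences was not tested.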

How the results depend on the processing

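With library sizes only, 18 P450 genes were higher and 31 lower with vehicle than at day 0, and 30 were higher and 20 lower with CHX than with vehicle (all features: 53.3% and 30.6%, then 30.4% and 54.1%). Under that scaling the log2 fold changes against day 0 turned for Cyp18a1 (0.20), Cyp4p3 (0.045), Cyp6a13 (0.054) and Cyp9b2 (0.20), and those of CHX against vehicle for Cyp18a1 (-0.065), Cyp6a13 (-0.10) and Cyp9b2 (-0.23). Within the unhyphenated libraries 15 genes were higher with vehicle, 15 were lower with CHX than with vehicle, and 0 were lower with CHX than at day 0 (38.0% and 38.1% of all features for the first 2 counts). There Cyp28a5 (0.10), Cyp4ac3 (0.031) and Cyp4p3 (0.01) turned against day 0, and Cyp28a5 (-0.023), Cyp4ac3 (-0.018) and Cyp304a1 (0.73) turned for CHX against vehicle. With libraries summed by series number the counts were 15 higher with vehicle and 14 lower with CHX (39.2% and 38.8% of all features). A fold change over 2 as a further condition left 29 lower with vehicle and 27 higher with CHX (29.7% and 30.4% of all features). The name series differed for 1 gene at day 0 with upper quartile factors (0.38% of all features), and by DESeq2 for 2 with CHX (1.47%), with 18 for the CHX effect (6.22%). The cause of these shifts was not tested.

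Leaving out 1 library gave 8 to 10 higher and 44 to 49 lower genes for vehicle against day 0, 45 to 48 and 8 to 11 for CHX against vehicle, and 0 and 1 for CHX against day 0. For the name series it gave 0 to 2 genes at day 0, 17 to 23 with vehicle and 0 to 1 with CHX, 8 to 14 for the age effect and 7 to 18 for the CHX effect. The replicate numbers were not taken to pair the libraries, since not every pair correlated over 0.1. Correlations of deviations ran from -0.29 to 0.55 within groups and from -0.36 to 0.42 within group and series, 5 of 6 pairs of CHX and day 0 were over 0.1 within groups and 2 of 6 within group and series, and not every library correlated best with its own number. With the replicate block in place of the series 8 genes were higher and 47 lower with vehicle, 47 higher and 8 lower with CHX against vehicle, and 0 and 1 with CHX against day 0. The 8 genes with low counts were not tested, and 3 libraries a series limit the comparisons of name series.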
